A study of Rattus norvegicus with 12 samples.

Results

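The genes described here carry out the unfolded protein response and the integrated stress response, and they were followed by mRNA in the livers of rats on 4 regimens. The set was chosen by name: 35 gene symbols were listed, and a probe set counted as a member when its annotation held exactly 1 symbol and that symbol was on the list. Of the 35 genes, 34 had such a probe set, 46 probe sets in all among 31099 on the array. Ern1, the gene of the sensor IRE1, was not analysed here. Genes entered the tests if their average exceeded log2 6.66, the median over probe sets, which held for 33 members among 9459 genes. Phgdh, with a mean of 6.48, was not tested and is described by its values.

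Liver RNA came from Sprague-Dawley rats, with 1 array and 1 animal number per sample and 3 samples per group. The normal diet group ate standard chow, and the HFD group ate a high-fat diet. The QHD group had 4 weeks of the same high-fat diet and then 4 weeks more of it with Qushi Huayu Decoction, a Chinese herbal medicine, given by gavage each day at 0.1 ml/kg. The GC group had the same schedule with geniposide and chlorogenic acid, 2 plant compounds given as a mixture, and the labels name no dose. All rats except the normal diet group ate the high-fat diet, and the labels do not show whether the QHD and GC arms were matched by dose. The sample titles state 4 weeks in all groups, so it is not known whether HFD rats were on the diet as long as the treated rats. The labels used here state neither sex nor age.

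The endoplasmic reticulum (ER) folds the proteins a cell secretes, and a hepatocyte makes most plasma proteins there. When unfolded proteins build up, the sensors IRE1, PERK and ATF6 start the unfolded protein response: IRE1 splices Xbp1 mRNA, ATF6 is cut to release a transcription factor, and PERK phosphorylates the initiation factor eIF2. The last step is shared with kinases that sense lack of amino acids and other stresses, and it favours translation of ATF4, which turns on genes of amino acid supply, Ddit3 (CHOP) and Trib3. Much of this control lies in splicing, cleavage, phosphorylation and translation, which the array does not measure. What it does measure is the mRNA of the sensors, factors and targets.

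The short DNA elements that link these genes to their factors are shown first. RefSeq promoter windows of 300 bases in the build GRCr8, 250 before and 50 after the start that the RefSeq table uses, matched 28 of the 35 members, and 11 of them (39.3%) held at least 1 of the 3 motifs searched. For 10 of the 28, among them Asns, Psat1, Herpud1, Canx and Creld2, that start lies inside the annotated locus, by 34 to 9461 bases, so that another start of the gene was not searched. All motifs were searched on both strands, and the first was the ER stress response element (ERSE), here CCAAT, then any 9 bases, then CCACG, which the ATF6 and XBP1 arm uses. It was found in 7 of 28 members (25%), against 21 of 27457 genes (0.0765%). The element was defined by earlier work on promoters of ER chaperones, so its frequency among the members is no result of these arrays. The 8 sites of the 7 members are printed here in the direction in which CCAAT comes first, with both ends of the element in capitals. The site of Calr, that of Creld2 and the second of Hsp90b1 lay on the strand opposite to the gene.
Hspa5 (chr3:38452973-38452991): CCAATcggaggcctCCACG
Hsp90b1 (chr7:23012451-23012469): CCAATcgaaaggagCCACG
Hsp90b1 (chr7:23012347-23012365): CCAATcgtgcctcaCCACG
Calr (chr19:40213135-40213153): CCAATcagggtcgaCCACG
Canx (chr10:35158069-35158087): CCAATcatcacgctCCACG
Creld2 (chr7:121789239-121789257): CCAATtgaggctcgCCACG
Dnajc3 (chr15:102432534-102432552): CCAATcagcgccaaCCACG
Xbp1 (chr14:84604558-84604576): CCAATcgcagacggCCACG

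The other motifs were the core TTGCATCA of the amino acid response element, to which ATF4 binds with a partner, and the core TGACGTGG of an element bound by XBP1 and ATF6. TTGCATCA was found in 3 of 28 members (10.7%), against 0.827% of all genes, and TGACGTGG in 1 (3.57%), against 0.681%. The cores overlapped no ERSE letters. Each is printed with the bases around it and the core in capitals, the first being TGACGTGG of Hyou1 and the others TTGCATCA.
Hyou1 (chr8:53602680-53602709): gccgcgaaccgTGACGTGGgccaatccgca
Chac1 (chr3:126795953-126795982): cttctccgccgTTGCATCActcctgctagg
Fgf21 (chr1:105221501-105221530): agacccccccaTTGCATCAttcgtccaggc
Herpud1 (chr19:10614873-10614902): accacggcgggTTGCATCAgcccgcaccct
Asns, whose amino acid response element is well known, held none of the 3 motifs in this window, which says only that these exact letters were not there.

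The upstream stretch is given in full for 2 genes: for Hspa5, a standard reporter of the response that was level here, and for Fgf21, which had one of the largest differences among the members. The capitals mark the ERSE of Hspa5, at -43 to -25 from the gene start, and the TTGCATCA of Fgf21, at -143 to -136. Hspa5 lies on the plus strand and Fgf21 on the minus strand, and each stretch is written in the direction of its gene.
Hspa5 upstream window (chr3:38452766-38453015): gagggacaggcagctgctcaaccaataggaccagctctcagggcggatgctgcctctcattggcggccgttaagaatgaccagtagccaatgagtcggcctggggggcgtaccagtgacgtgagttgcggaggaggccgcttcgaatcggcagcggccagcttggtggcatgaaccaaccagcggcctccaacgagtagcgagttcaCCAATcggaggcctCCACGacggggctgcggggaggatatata
Fgf21 upstream window (chr1:105221377-105221626): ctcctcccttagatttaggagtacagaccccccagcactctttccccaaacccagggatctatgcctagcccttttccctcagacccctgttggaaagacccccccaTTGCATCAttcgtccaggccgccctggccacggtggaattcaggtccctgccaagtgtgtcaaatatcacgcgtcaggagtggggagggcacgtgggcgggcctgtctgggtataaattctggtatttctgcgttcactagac

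The array labelled normal diet 3 was not used for the results. It had a hepatocyte marker median (18 genes) of 6.23, where the remaining 11 arrays had 14.66 to 15.14, and its fat cell markers Adipoq and Plin1 stood at 14.4 and 14.3, against at most 5.3 and 6.1. Correlation across genes was 0.412 to 0.466 between it and the rest, and 0.930 to 0.981 among the rest. Among the 34 members it was below all other arrays for 22 and above them for 6. The normal diet group therefore has 2 arrays. The values with it put back are given beside the calls of Pdia3 and Asns and after those of the other pathway genes. The median log2 signal of the 11 arrays was 6.62 to 6.87, and their number limits the precision of every comparison. No label gives a batch.

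The median gene of the response changed little between HFD and normal diet and between each treated group and HFD. The same held for genes in general in these comparisons. Against normal diet, 7.46% of all genes were called with QHD and 9.61% with GC, by the rule given below. On HFD against normal diet the median size of the log2 change was 0.18 for members and 0.17 for all genes tested. It was 0.15 and 0.16 for QHD against HFD, and 0.15 and 0.14 for GC against HFD. On the probe sets used, the largest difference between any groups was under log2 0.5, or 1.41-fold, for 26 of the 33 tested members. For 4 it was log2 1 or more, namely Atf3, Psat1, Fgf21 and Asns. For 22 members the 95% interval of the difference lay within log2 1, or 2-fold, in either direction in all 6 comparisons. The 11 whose intervals reached further were Asns, Atf3, Chac1, Ddit3, Edem1, Fgf21, Hyou1, Psat1, Sdf2l1, Sesn2 and Trib3. For the latter a change of more than 2-fold in some comparison is within what these arrays allow. Only 8 of the 33 members had all 6 intervals within log2 0.5. The median SD within groups was 0.261 for the members and 0.202 for all genes tested.

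A gene was called when its limma p, adjusted over all 9459 genes, was under 0.05. For HFD against normal diet 0 of 33 members were called, where 0.529% of all genes were, and 2 members (6.06%) had an unadjusted p under 0.05, against 14.4%. QHD against HFD gave 0 called members against 0.56% of all genes, and 4 members (12.1%) at the unadjusted threshold against 12.7%. GC against HFD gave 0 against 0.0951%, and 1 member (3.03%) against 8.76% unadjusted. The direct comparison of QHD with GC gave 0 against 0.275%, and 1 member (3.03%) against 9.98%. When the treated groups were set against normal diet, QHD gave 0 called members against 7.46% of genes, with 4 (12.1%) against 25.1% unadjusted. GC gave 2 called members, Pdia3 and Asns, both higher, against 9.61% of genes, with 4 (12.1%) against 25.6% unadjusted. In each comparison the share of members at the unadjusted threshold was below that of all genes. These shares rest on 1 to 4 members each, and whether they differ from those of all genes was not tested. The comparisons share their control arrays, so these counts are not independent of each other.

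**Figure D1:**
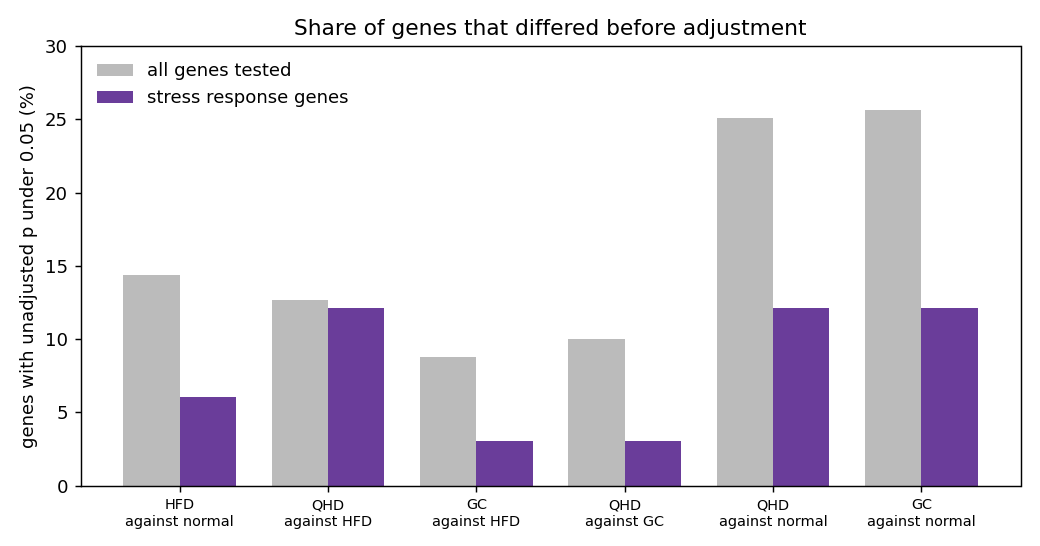
Percent of genes with an unadjusted limma p under 0.05 (vertical axis) in each of the 6 comparisons, for all 9459 genes tested (grey) and the 33 stress response genes (purple). The members reach 3.03% to 12.1%, which is 1 to 4 genes, and in no comparison do they exceed the share of all genes.

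Overlap of the groups was also counted. Between HFD and normal diet 6 members (18.2%) had groups with no overlap, against 28.3% of all genes, and between QHD and HFD 6 members (18.2%) against 17.5%. The shares were 9.09% against 13.5% for GC and HFD, and 12.1% against 18.5% for QHD and GC. Against normal diet they were 24.2% against 43.6% for QHD and 30.3% against 43.9% for GC. The median log2 change of the members was 0.09 on HFD against normal diet, where that of all genes was 0.03. In the remaining comparisons it lay between -0.01 and 0.09, and that of all genes between -0.01 and 0.05.

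**Figure D2:**
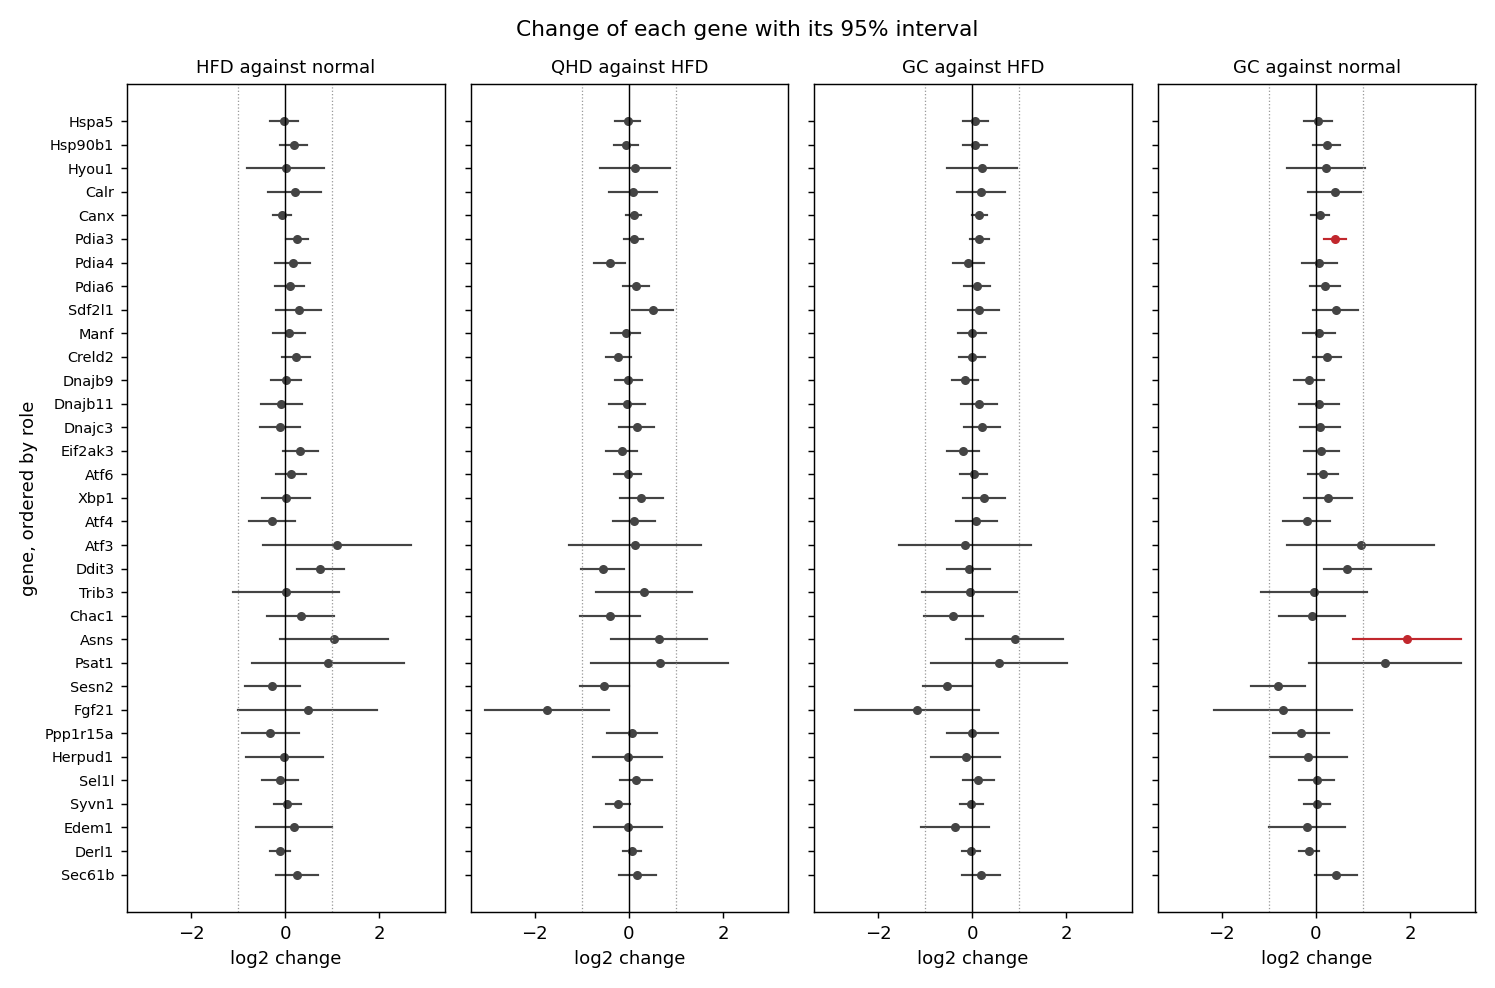
Log2 change (point) with its 95% interval (line) for each of the 33 genes, in 4 comparisons, with dotted lines at log2 -1 and 1. The called genes Pdia3 and Asns are red in GC against normal diet, and most chaperone intervals stay well inside the dotted lines while those of Atf3, Asns, Psat1 and Fgf21 cross them.

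The ER chaperones and folding enzymes differed little between the groups. Hspa5 encodes BiP, the main Hsp70 chaperone of the ER and the standard reporter of ER stress. Its log2 signal was 13.80 and 14.11 in the normal diet rats, 14.21, 13.80 and 13.81 in the HFD rats, 13.90, 13.94 and 13.89 in the QHD rats, and 14.01, 14.09 and 13.91 in the GC rats. The groups overlapped throughout, and HFD 24 was the highest array. The HFD mean differed from normal by -0.02 (95% interval -0.31 to 0.28), and its largest difference in any comparison was 0.09 in size. The exact ERSE found in its window is the one printed above, and sites that depart from these letters were not searched.

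The 6 other ERSE genes had largest differences of 0.15 to 0.40. Hsp90b1, the ER Hsp90 (GRP94), stood at 13.29 in each normal diet rat and between 13.33 and 13.71 elsewhere, so that its normal diet arrays were the lowest of all 11, with differences of at most 0.23. Calr and Canx, the calreticulin and calnexin that fold glycoproteins, had largest differences of 0.40 and 0.15. Creld2, a secreted ER stress protein, and Dnajc3, a cochaperone that also restrains PERK, had 0.24 and 0.20. Xbp1, the factor spliced by IRE1, had 0.28. None of the 7 passed in any of the 6 comparisons.

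Pdia3, the thiol oxidoreductase ERp57 that works with calnexin and calreticulin, was the single chaperone called. Its shift was small on the probe set used and larger on a second one. The gene lies at chr3:128841781-128865733 (GRCr8, RefSeq). Its log2 signal was 13.39 and 13.23 on normal diet, 13.59, 13.67 and 13.44 on HFD, 13.69, 13.62 and 13.70 with QHD, and 13.77, 13.79 and 13.58 with GC. Both normal diet arrays lay below the other 9, a pattern shown by 10.5% of all genes tested, and among the members by Pdia3, Hsp90b1 and Asns. GC exceeded normal diet by 0.40 ± 0.10 (SE, adjusted p = 0.0351 by limma), or 1.32-fold, with an interval of 0.17 to 0.63. QHD exceeded it by 0.36 (adjusted p = 0.0602) and HFD by 0.25 (adjusted p = 0.286), neither of which passed. A second Pdia3 probe set, tested on its own, differed by 0.88 ± 0.21 between GC and normal diet (adjusted p = 0.0269). Between GC and HFD it differed by 0.74 and the first by 0.15, and neither passed (adjusted p = 0.336 and 0.684 by limma over every probe set). The call of the first was lost when normal diet 2, normal diet 4, QHD 45, GC 35 or GC 37 was left out (adjusted p 0.0518 to 0.205) and when normal diet 3 was put back (adjusted p = 0.207).

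Sdf2l1, a partner of BiP in the folding of nascent proteins, was the chaperone with the widest differences on the probe sets used. Its log2 signal was 10.86 and 10.68 on normal diet, 11.09, 11.41 and 10.67 on HFD, 11.43, 11.42 and 11.85 with QHD, and 11.38, 11.31 and 10.89 with GC. The 3 QHD arrays lay above the other 8, as they did for 2.32% of all genes tested and for no other member. QHD exceeded normal diet by 0.79 ± 0.22 (SE, adjusted p = 0.0527) and HFD by 0.51 ± 0.20 (adjusted p = 0.310), and neither difference passed. Pdia4, another disulfide isomerase, lay the other way: it read 13.08, 12.60 and 12.78 on HFD and 12.54, 12.45 and 12.26 with QHD, with no overlap, a difference of -0.40 (interval -0.74 to -0.07, adjusted p = 0.287). On normal diet Pdia4 read 12.67 and 12.64, and with GC 12.87, 12.90 and 12.43.

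The remaining chaperones were Pdia6, Manf, Hyou1, Dnajb9 and Dnajb11. Pdia6, a disulfide isomerase bound to BiP, had a largest difference of 0.24, and Manf, an ER-resident secreted factor, of 0.07. Hyou1, the large chaperone GRP170 with TGACGTGG in its window, spread from 7.83 to 9.18 over the arrays, with both ends among the HFD rats. Dnajb9 and Dnajb11, Hsp40 partners of BiP, had largest differences of 0.16 and 0.18. Of the 14 genes, 12 spanned less than log2 1 over all 11 arrays on the probe sets used.

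Animals of a group differed from each other in their chaperones. HFD 24 was the highest array for 7 of the 14, and 12 of the 14 were above their own mean there, with a median deviation of 0.24. In HFD 87, 2 of the 14 were above their mean, and the median deviation was -0.16. Within the GC group 14 and 13 of the 14 were above the mean in GC 35 and GC 37 (medians 0.18 and 0.15), but 2 in GC 55 (-0.15). The QHD arrays had medians of 0.04, -0.06 and -0.02, and the normal diet arrays -0.03 and -0.12. Over all genes tested the median deviation of an array was between -0.04 and 0.03. Rats on the same regimen, HFD 24 and HFD 87, stood at both ends of the chaperone range. HFD 24 also stood apart from HFD 36 and HFD 87 in the summed signal of clock genes (10763 against 7112 and 7329). The same held for macrophage and Kupffer cell genes (45375 against 76985 and 69141), and the part of either was not tested.

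**Figure D3:**
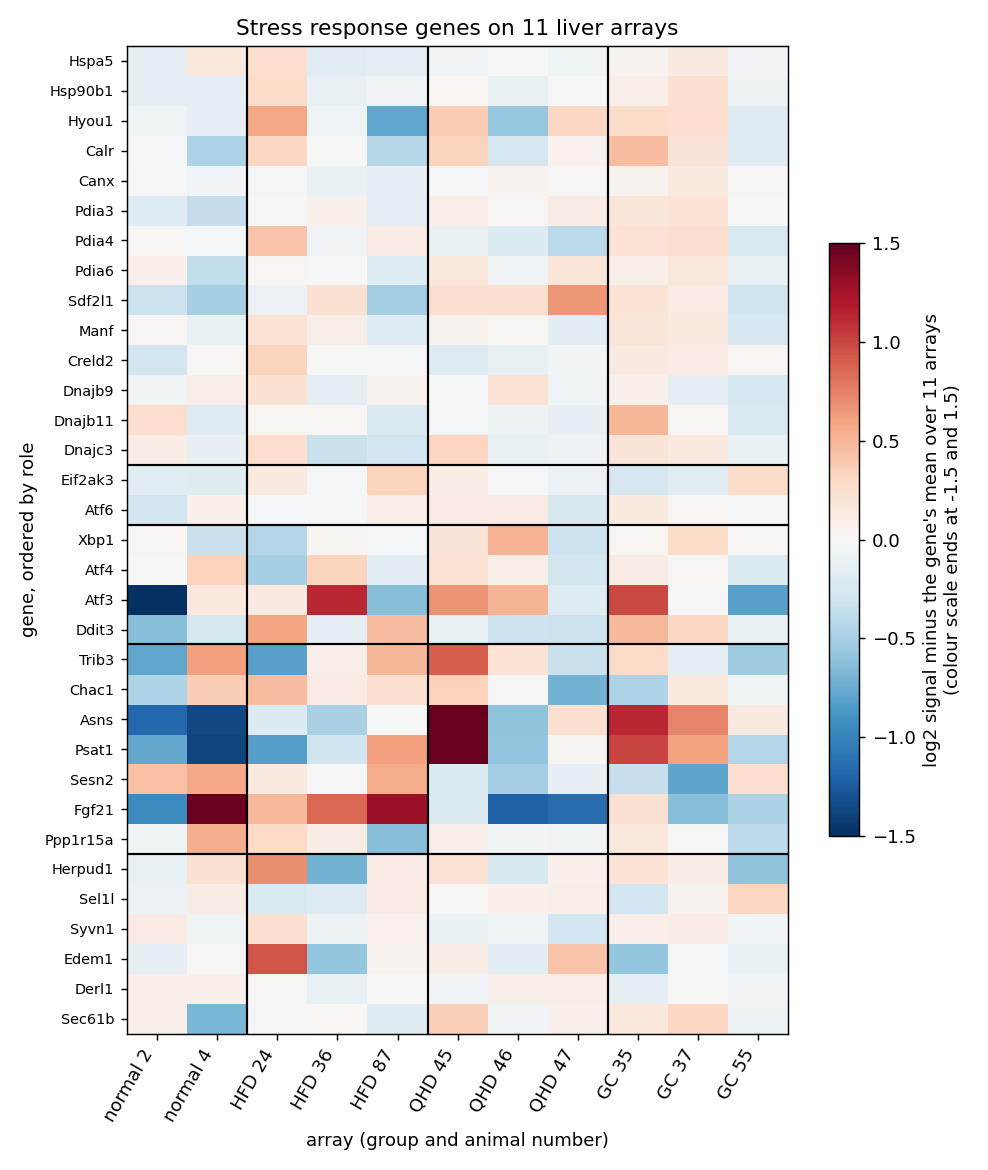
Log2 signal minus the gene's mean over 11 arrays (colour, blue below and red above, ends at -1.5 and 1.5) for the 33 genes (rows, by role, with black lines between roles) on each array (columns, by group). The chaperone rows are pale apart from single arrays such as HFD 24, and the strong colours lie in Atf3, Asns, Psat1 and Fgf21.

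Neither of the 2 stress sensors measured passed in any comparison. Eif2ak3, which encodes PERK, read 9.03 and 9.01 on normal diet, 9.33, 9.17 and 9.52 on HFD, 9.30, 9.17 and 9.10 with QHD, and 8.94, 9.03 and 9.46 with GC. HFD and normal diet did not overlap, and the difference of 0.32 did not pass (adjusted p = 0.434). Atf6, the sensor released by cleavage, read 10.35 and 10.71 on normal diet, 10.61, 10.62 and 10.74 on HFD, 10.76, 10.75 and 10.39 with QHD, and 10.78, 10.66 and 10.62 with GC. All its groups overlapped, and its largest difference was 0.16.

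Among the transcription factors no comparison passed. Ddit3 encodes CHOP, the factor tied to cell death in prolonged ER stress. Its log2 signal was 8.68 and 9.09 on normal diet, 9.91, 9.20 and 9.78 on HFD, 9.22, 9.01 and 9.0 with QHD, and 9.81, 9.63 and 9.23 with GC. The HFD rats lay above the normal diet rats and the QHD rats below the GC rats, while HFD 36 overlapped the QHD group. HFD exceeded normal diet by 0.75 ± 0.23 (SE, interval 0.24 to 1.26, adjusted p = 0.155) and GC exceeded it by 0.67 (adjusted p = 0.0912). QHD differed from HFD by -0.55 (adjusted p = 0.291), from GC by -0.48 (adjusted p = 0.477) and from normal diet by 0.20 (adjusted p = 0.659). With limma's array weights over the 11 arrays Ddit3 passed in HFD against normal diet, QHD against HFD and GC against normal diet.

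Atf4, the factor whose translation the integrated stress response controls, read 12.64 and 12.97 on normal diet, 12.13, 12.96 and 12.47 on HFD, 12.84, 12.71 and 12.35 with QHD, and 12.74, 12.66 and 12.42 with GC. The groups overlapped, and its protein was not measured. Xbp1 read 13.51 and 13.13 on normal diet, 13.04, 13.51 and 13.46 on HFD, 13.66, 13.99 and 13.15 with QHD, and 13.50, 13.74 and 13.49 with GC, again with overlap in every comparison. The signal does not separate its spliced form. Atf3, an early stress factor induced by ATF4, had the widest range of these factors. It read 7.05 and 9.16 in the normal diet rats, 9.14, 10.13 and 8.36 on HFD, 9.68, 9.51 and 8.81 with QHD, and 9.99, 8.99 and 8.19 with GC. QHD exceeded normal diet by 1.22 (interval -0.35 to 2.79), and by 0.17 without normal diet 2 and 2.28 without normal diet 4.

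The targets of the integrated stress response held the largest differences, and these ran in opposite directions. Asns, asparagine synthetase, makes asparagine from aspartate and is a classical ATF4 target. The gene lies at chr4:36752061-36769970 (GRCr8, RefSeq). Its log2 signal was 6.35 and 6.18 on normal diet, 7.32, 7.05 and 7.52 on HFD, 9.13, 6.92 and 7.77 with QHD, and 8.66, 8.26 and 7.67 with GC. The normal diet arrays were the lowest of the 11, and the GC arrays were all above the HFD arrays. Both normal diet arrays were below the signal threshold of log2 6.66, which Asns passed through the other groups. GC exceeded normal diet by 1.93 ± 0.52 (SE, adjusted p = 0.0419 by limma), with an interval of 0.78 to 3.08. With 32 added to the linear signals, which damps differences between low values, it was 1.58 (adjusted p = 0.0525) and did not pass. QHD exceeded it by 1.68 (adjusted p = 0.0752), HFD by 1.03 (adjusted p = 0.404), and GC exceeded HFD by 0.90 (adjusted p = 0.616), none of which passed. The call of GC against normal diet was lost without normal diet 2, normal diet 4, HFD 24, HFD 87, GC 35 or GC 37 (adjusted p 0.0510 to 0.176). Summed macrophage markers also differed between GC and normal diet, as given with the other cell markers, and their part was not tested. With normal diet 3, where Asns stood at 11.28, the difference was 0.26 (adjusted p = 0.939).

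Phgdh and Psat1, which encode successive enzymes of serine synthesis from a glycolytic intermediate, shared their highest arrays with Asns. Psat1 read 6.39 and 5.77 on normal diet, 6.33, 6.86 and 7.77 on HFD, 9.16, 6.56 and 7.19 with QHD, and 8.17, 7.76 and 6.71 with GC. Its values in both normal diet rats, HFD 24 and QHD 46 were below the signal threshold. Phgdh, which was not tested, read 4.86 and 2.47 on normal diet, 6.52, 5.91 and 7.20 on HFD, 9.0, 5.75 and 7.59 with QHD, and 8.48, 8.07 and 5.46 with GC. QHD 45 was the highest array for all 3 genes, and GC 35 the next. The differences of Psat1 from normal diet were 1.56 with QHD (interval -0.06 to 3.18, adjusted p = 0.214) and 1.47 with GC (interval -0.15 to 3.08, adjusted p = 0.240). Its SD within QHD was 1.36, against group differences of 0.09 to 1.56. The RNA was from whole liver, where more cells of a type and more RNA per cell cannot be told apart.

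Fgf21 encodes a liver hormone of the fasting and stress response, with TTGCATCA in its promoter as printed above. Its log2 signal was 7.10 and 9.82 on normal diet, 8.54, 8.92 and 9.35 on HFD, 7.84, 6.85 and 6.91 with QHD, and 8.28, 7.41 and 7.58 with GC. All QHD arrays and all GC arrays were below all HFD arrays, while the 2 normal diet rats spanned nearly the whole range. QHD differed from HFD by -1.74 ± 0.59 (SE, interval -3.05 to -0.42, adjusted p = 0.252) and GC by -1.18 (interval -2.49 to 0.14, adjusted p = 0.613). QHD and GC differed from each other by -0.56 (interval -1.87 to 0.76). None of these passed over all genes.

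Sesn2, sestrin 2, a stress-induced inhibitor of mTORC1 signalling, had its highest mean on normal diet. It read 10.02 and 10.14 there, 9.72, 9.58 and 10.12 on HFD, 9.37, 9.06 and 9.45 with QHD, and 9.22, 8.78 and 9.82 with GC. Both treated groups lay below normal diet without overlap, by -0.79 for QHD (adjusted p = 0.0919) and -0.81 for GC (adjusted p = 0.0800). Against HFD the differences were -0.52 and -0.53 (adjusted p = 0.394 and 0.562). A second Sesn2 probe set was below the signal threshold. Its means were 6.28 on normal diet, 6.64 on HFD, 5.68 with QHD and 5.13 with GC. Sesn2 and Asns are both ATF4 targets and stood in opposite order between normal diet and the treated groups.

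**Figure D4:**
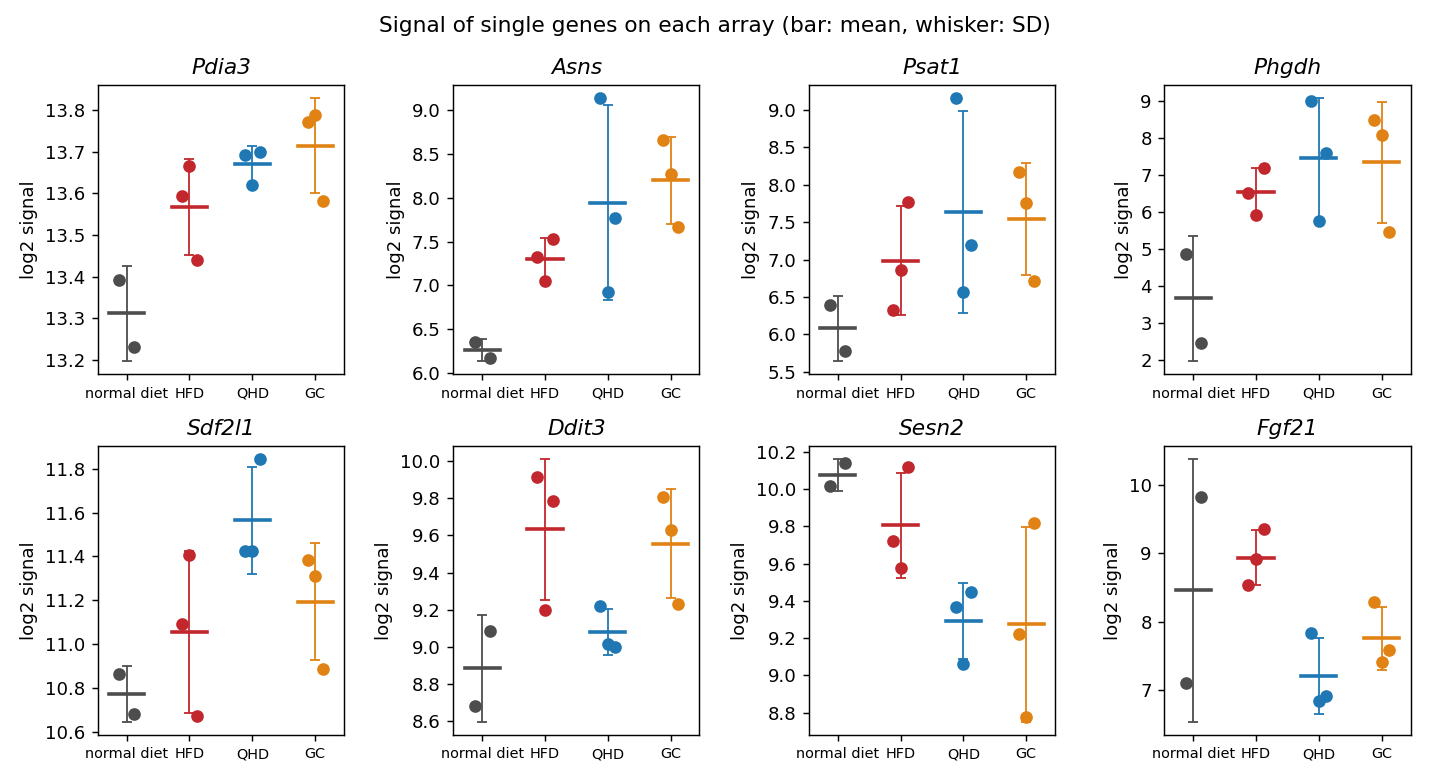
Log2 signal (vertical axis, its own range in each panel) of 8 genes on each of 11 arrays (points) by group, with the mean (bar) and SD (whisker) of 2 normal diet and 3 HFD, QHD and GC arrays. Asns, Psat1 and Phgdh have their lowest mean on normal diet, Sesn2 has its highest mean there, and Fgf21 is lower in all QHD and GC rats than in any HFD rat.

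Trib3, a pseudokinase induced by ATF4 and CHOP, read 8.03 and 9.42 on normal diet, 8.0, 8.91 and 9.31 on HFD, 9.71, 9.01 and 8.48 with QHD, and 9.09, 8.68 and 8.28 with GC. The groups overlapped in all comparisons. Its 3 probe sets did not all differ the same way for GC against normal diet, with group means of 8.68 and 8.73, 8.54 and 8.06, and 8.15 and 7.80, and none was called. Chac1, which degrades glutathione, and Ppp1r15a (GADD34), which brings the phosphatase that reverses eIF2 phosphorylation, had largest differences of 0.40 and 0.32.

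None of the genes of ER-associated degradation and of translocation into the ER passed, and their largest differences were 0.14 to 0.44. Herpud1, which organises the degradation complex and held TTGCATCA in its window, ranged from 11.92 to 13.33, both among the HFD rats. Sel1l and Syvn1, the core of the HRD1 ubiquitin ligase, had largest differences of 0.16 and 0.22. Edem1, which picks out misfolded glycoproteins, read 13.97 in HFD 24 against at most 13.45 elsewhere on the probe set used. Its other probe sets read 11.43 and 10.45 in HFD 24, and 11.42 and 10.49 in QHD 47. Derl1, a channel component, spanned the least of all members on the probe sets used, 0.24 over 11 arrays. Its other probe sets spanned 0.60 and 0.43. Between QHD and GC the former of these differed by -0.31 and the one used by 0.11, and neither was called. Sec61b, a subunit of the translocation channel, read 13.52 and 12.76 on normal diet, 13.42, 13.47 and 13.27 on HFD, 13.80, 13.39 and 13.52 with QHD, and 13.60, 13.76 and 13.37 with GC. The difference of 0.44 between GC and normal diet, whose arrays overlapped, was 0.06 without normal diet 4 and 0.81 without normal diet 2.

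Where a member had several probe sets above the signal threshold, as 5 did, none but those of Pdia3 was called. The probe sets of a gene could differ. For Canx, between QHD and HFD, the one with the highest signal differed by 0.10 and another, with groups at 12.48 and 12.78, by -0.29.

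Other genes of the same pathways were read from lists of 158 symbols, of which 140 were tested. None was called between HFD and normal diet, QHD and HFD, GC and HFD, or QHD and GC. Unadjusted p under 0.05 was reached there by 16, 19, 13 and 9 of the 140, or 11.4%, 13.6%, 9.29% and 6.43%, against 14.4%, 12.7%, 8.76% and 9.98% of all genes. Against normal diet 9 were called with QHD (6 higher, 3 lower), 6.43% against 7.46% of all genes. With GC 11 were called (7 higher, 4 lower), 7.86% against 9.61% of all genes. Both shares were below that of all genes. When normal diet 3 was put back, none of these 20 calls passed. Leaving out 1 of the 11 arrays gave 2 to 12 called genes with QHD and 1 to 17 with GC.

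Of the list of protein entry and export, 4 genes were called higher in both treated groups. Sec61g, a subunit of the translocation channel beside Sec61b, was higher than normal diet by 0.64 with QHD and 0.56 with GC. Kdelr3, a receptor that returns chaperones to the ER, was higher by 1.31 and 0.98, Lman1, a cargo receptor for glycoproteins, by 0.71 and 0.67, and Sec23b, a coat protein of export vesicles, by 0.47 and 0.61. The normal diet arrays of Kdelr3 (6.33 and 5.83) were below the signal threshold. These 4 are 10.5% of the 38 tested genes of the list, and none was called lower. Of all genes tested 7.46% were called with QHD and 9.61% with GC. Differences were below 0 for 8 of the 38 with QHD and for 6 with GC. The list's median was 0.27 with QHD and 0.21 with GC, where that of all genes was 0.05 in each. Both comparisons use the same 2 normal diet arrays. With each array left out in turn, the calls of Lman1, of Sec23b with QHD and of Kdelr3 with GC were lost in most fits. Those of Sec61g, of Kdelr3 with QHD and of Sec23b with GC were kept in most. Between QHD and HFD, where none of the list was called, 15 of the 38 (39.5%) had groups without overlap. All 15 were higher with QHD, and the share of all genes was 17.5%. In the other lists of pathway genes it was 12% to 16.7%. At the unadjusted threshold 6 of the 38 (15.8%) passed, against 12.7% of all genes.

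Called amino acid genes of the ATF4 list lay in both directions. Aldh18a1, which starts proline synthesis, was higher by 1.13 with QHD and 1.27 with GC, Slc1a5, a glutamine transporter, by 1.70 with GC, and Shmt2, a mitochondrial serine enzyme, by 0.43 with QHD. The normal diet arrays of Aldh18a1 (6.06 and 6.65) and Slc1a5 (6.28 and 6.12) were below the signal threshold. With 32 added to the linear signals Slc1a5 with GC (adjusted p = 0.0519) did not pass, nor did Kdelr3 and Lman1 with GC (adjusted p = 0.0542 and 0.0511). Cth and Cbs, which make cysteine from homocysteine, were lower by -0.93 and -0.72 with QHD and by -0.77 and -0.68 with GC. Sqstm1, the autophagy receptor p62, differed by -0.77 with QHD, and Nfe2l2, the oxidative stress factor NRF2, by 0.93 with GC. Pdia5, a disulfide isomerase, was lower by -1.84 with GC, and Rnf139, an ER ubiquitin ligase, by -0.54. When each array was left out in turn, the calls of Nfe2l2, Slc1a5, Shmt2 and Pdia5 were lost in most fits. Those of Aldh18a1, Cth, Cbs, Sqstm1 and Rnf139 were kept in most.

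Markers of other liver cells also differed between the treated and normal diet arrays, and their part in the results was not tested. The summed linear signal of 13 macrophage and Kupffer cell genes, all above the threshold, was 42217 to 48822 on normal diet, 45375 to 76985 on HFD, 57914 to 67843 with QHD and 70418 to 73944 with GC. That of 13 T and NK cell genes, 9 above the threshold, was 1806 to 2190, 2139 to 4079, 2757 to 3571 and 3197 to 4041 in the same order. For 12 stellate cell genes, 11 above it, the sums were 5778 to 6641, 9308 to 10033, 6076 to 9224 and 6983 to 8090, and for 7 endothelial genes, all above it, 17374 to 17765, 14727 to 15974, 14035 to 16604 and 13496 to 15079. Hepatocyte sums over 18 genes, all above it, were 550229 to 618500, 504712 to 623139, 458093 to 526468 and 505264 to 545745, so that QHD and GC lay below normal diet. The 14 clock genes, 13 above it, summed to 7648 to 7913, 7112 to 10763, 10063 to 10135 and 8162 to 12197. Such a sum hides genes of opposite phase. Of the 13, 3 were called higher with GC than on normal diet (Bhlhe41 by 4.90, Dbp by 4.57, Nr1d1 by 3.37) and 3 lower (Bmal1, Cry1 and Clock, by -2.16, -1.82 and -0.51), and all 13 had groups without overlap there, against 43.9% of all genes. With QHD 2 were called higher than on normal diet and 1 lower, against HFD 0 and 1, and against GC 1 and 1, and their part in the results was not tested. Of 11 fat cell, 9 B and plasma cell, 5 bile duct and 12 pancreatic acinar genes, 7, 5, 2 and 2 exceeded the threshold. In the same order of groups fat cell sums were 32310 to 34235, 30231 to 35083, 28412 to 30410.5 and 27945 to 30730. These sums mostly follow a single gene, Acsl1, with a mean log2 signal of 14.6, where the next, Cidec, had 11.2. Adipoq, Plin1, Lep and Slc2a4 had means below the threshold, so the sums do not measure fat cell RNA. Those of B and plasma cells were 3058 to 3890, 3980 to 6685, 3508 to 3828 and 3264 to 7035. Bile duct and acinar sums were 736 to 1579 and 852 to 1781 over the 11 arrays. Fabp4, a fat cell gene, read 6.05 and 5.19 on normal diet and 6.68 to 9.82 in the other groups. Of 5 B and plasma cell genes tested, 1 was called higher on HFD than on normal diet, against 0.529% of all genes. Prss2, an acinar gene, was the single marker at 0, on 2 arrays.

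In the authors' deposited table, which counts normal diet 3 among 3 normal diet arrays, few members had a p under 0.05. For GC against HFD these were Fgf21 (p = 0.0302, 2.26-fold lower) and Canx (p = 0.0447, 1.11-fold higher) in the authors' deposited table, where 3.9% of all probe sets passed. QHD against HFD had 1 in the authors' deposited table, Fgf21 again (p = 0.0145, 3.33-fold lower), where 5.33% passed. Normal diet against GC had 1, Pdia3 (p = 0.0445, 1.45-fold lower on normal diet), where 4.07% passed in the authors' deposited table. Normal diet against HFD and against QHD had 0 there, where 2.25% and 4.18% passed. After Benjamini-Hochberg adjustment 0 of the 31099 probe sets passed in each of these 5 comparisons of the authors' deposited table.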

How the data were processed

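Liver RNA, 6 µg per rat, was read on 12 arrays. The authors deposited log2 signals, and the submitters' processing notes name Affymetrix Expression Console and MAS5 without versions. The linear signals of every array had a trimmed mean of 500.2 or 500.3 with 2% cut at each end. The authors also deposited a p-value and a fold change per probe set, whose test is not named, and a second table of identical signals.

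Probe sets were named from the platform annotation: 20832 had 1 symbol, 436 several and 9831 none. For each gene the probe set with the highest mean was kept, and it was tested above the median of all probe sets, log2 6.66. Detection calls were not used here. Group means over 11 arrays were estimated in R 4.3.3 by limma 3.58.1 (trend and robust options, 7 residual degrees of freedom), which was tested on simulated signals, and p was adjusted by Benjamini-Hochberg over 9459 genes. Every adjusted p is limma's. The labels give each array its own animal number, and nothing more on how animals were kept apart, so p-values measure the spread between these samples. Promoters and gene positions came from RefSeq (GRCr8). Figures used matplotlib 3.10.9.

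Members, lists and tests were chosen with earlier results of these data known. Values of every array are given for called members, for a fixed panel (Hspa5, Eif2ak3, Atf6, Xbp1, Atf4, Ddit3, Asns, Trib3, Fgf21) and for some of the 12 with the next smallest p; Phgdh was added after its values were seen. Alternatives were each array left out, all 12 arrays, quantile normalization, no signal filter, 32 added to the linear signal, every probe set, array weights, only the groups compared, and plain moderation.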

Additional observations from a re-analysis of the deposited data

Results flagged for a closer look

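The array labelled normal diet 3 was used in no comparison, and 6 members stood higher on it than on all 11 other arrays. Psat1 read log2 12.29, against at most 9.16 on the others, Asns 11.28 against 9.13 and Phgdh 10.62 against 9.0. Ddit3 read 10.29 against 9.91, Atf6 10.94 against 10.78, and Eif2ak3 9.55 against 9.52, the last by less than the spread within groups. On the same array 22 of the 34 members were below all others, among them 13 of the 14 chaperones.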

How the results depend on the processing

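Of 2508 values of 22 named members under 19 other settings, 125 changed sign, none of them past the threshold. The cause of a changed call was not tested. The count of called members for GC against normal diet, 2 by the model described, was 0 over 12 arrays, 1 with quantile normalization (Pdia3), with 32 added (Pdia3), with plain moderation (Asns) and with only those groups fitted (Asns), and 4 with array weights (Asns, Ddit3, Pdia3, Sesn2). Leaving out 1 array gave 0 to 3: it was 0 without normal diet 2, normal diet 4, GC 35 or GC 37, and 1 without HFD 24, HFD 87 or QHD 45. For QHD against normal diet the 0 became 1 with array weights (Sdf2l1) and 2 with only those groups fitted (Sdf2l1, Sesn2), and 0 to 2 with 1 array left out. A normal diet group of 1 array was assumed to vary like the other groups. Array weights gave 1 for HFD against normal diet (Ddit3), 2 for QHD against HFD (Ddit3, Sdf2l1) and 1 for GC against HFD (Sesn2). Weights over 12 arrays, an alternative chosen after seeing the data, gave 2, 1, 1, 7 and 8 for HFD against normal diet, QHD against HFD, GC against HFD, QHD against normal diet and GC against normal diet. Over all genes, called counts with 1 array left out ran from 11 to 308, 18 to 161, 0 to 121, 134 to 1050 and 161 to 1273 for the same comparisons, and from 6 to 59 for QHD against GC. Under the other settings they ran from 0 to 267, 0 to 434, 0 to 659, 4 to 972, 65 to 1458 and 0 to 185. Of the 20 calls among other pathway genes, 6 changed sign over 12 arrays, a setting added for them after seeing the data: Cbs to 0.74 with QHD and 0.77 with GC, Cth to 2.03 and 2.20, and Kdelr3 and Slc1a5 to -0.23 and -0.21 with GC, none past the threshold. No paired analysis was possible because the animal numbers differ between the groups.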
